A study of Mus musculus with 8 samples.

Results

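The 35 genes described here are Myc, its relative Mycn, and 33 genes whose proteins build ribosomes in the nucleolus. They were chosen by name: a probe counted for a gene when the transcript accession printed on the array matched that gene in RefSeq, and where several probes matched, the brightest was used. A probe was matched for 34 of the 35; Nop56 had none and is not analysed here. The 34 were tested among 19255 genes, and each was well above background in the sample dye on 8 of 8 arrays, so no member entered the test through a single group.

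The RNA came from small intestinal organoids, which are self-renewing balls of gut epithelium grown in Matrigel. Wild-type mouse organoids of 2 independently established lines grew for 6 days either untreated or treated: CHIR99021 was given at 3 µM, valproic acid (VPA) at 1 mM, and the combination held each at the same dose. CHIR99021 inhibits the kinase GSK3 and so mimics Wnt signalling; VPA inhibits histone deacetylases. Each of the 4 groups held 2 arrays, 1 for each line, and on each array Cy5-labelled sample RNA was set against Cy3-labelled control RNA of the same line, the control group included. Values below are log2 Cy5/Cy3 ratios. A difference between groups is a difference of these ratios, given with its standard error (SE) from limma, 2 arrays a group, and a p-value adjusted by the Benjamini-Hochberg method over all genes tested, with 0.05 as the threshold. No dyes were swapped, so a probe's own dye bias is read from the control arrays and removed by the comparison with them. The fit shares a single spread over all 4 groups, although both dyes of a control array carried control RNA of the same line. An SE can thus be too small where a treated group varies more, as for Myc (SD 0.03 for control, 0.65 with both agents). In RNA of whole organoids, fewer cells of a type and less RNA per cell cannot be told apart.

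Myc is a transcription factor that binds DNA with its partner Max and raises the output of many growth genes, ribosome assembly among them. In the gut, Myc is a known target of Wnt signalling and is active in the dividing cells of the crypt. A ribosome starts as one long precursor RNA, made by RNA polymerase I; small nucleolar RNA-protein particles (snoRNPs) modify it, and separate sets of factors cut and fold it into the small and the large subunit.

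The share of spots that stood well clear of background in the sample dye ran from 60.6% to 64.6%, and saturation was marked on 0 of them. Between 162 and 328 spots an array were left out as outliers, most on the combination array of line 1, whose fitted noise SDs of 1.91 (Cy5) and 1.44 (Cy3) were also the highest. The epithelial label held: 13 of 13 epithelial markers were well above background on all 8 arrays, and of 15 non-epithelial markers with a probe 5 (Dcn, Lum, Pecam1, Cdh5 and Kdr) were so on none. Over the members the SE of a difference ran from 0.09 to 0.43, with a median of 0.13, and the smallest difference from control that passed the test was 0.39.

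With CHIR99021 the ribosome genes lay a little above control almost throughout. The difference was positive for 30 of 34 members, with a median of 0.23 (0.26 in line 1 and 0.23 in line 2) against 0.01 over all genes tested. Only Npm1 passed the test, and it rose; over all genes 1.12% passed, 0.114% upward and 1.01% downward. Both CHIR99021 arrays lay above both control arrays for 26 members, or 76.5%, against 26.5% of all genes, and below them for 1, or 2.94%, against 25.3%. Between 24 and 32 of the 34 differences were positive in the other processing settings that kept all 34 members, and 24 came from the one that ignored the control arrays.

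With VPA alone more members lay below control than above it, but the lean was uneven between the lines. The median was -0.07, with 10 positive and 24 negative differences, and the lines parted: 0.04 in line 1 and -0.28 in line 2. Without the VPA array of line 2 the median was 0.05. Npm1, Ncl and Dkc1 fell, 3 of 34, where 10.9% of all genes passed, 4.27% lower and 6.58% higher. Both VPA arrays lay below both control arrays for 13 members, or 38.2%, against 28.5% of all genes, and above them for 5, or 14.7%, against 28.9%.

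With both agents Rrp9, Polr1c and Tsr1 rose and Mycn fell, where 15.5% of all genes passed, 8.43% higher and 7.09% lower, so calls among the 34 were no more frequent than over all genes. The median was 0.13, with 24 positive and 10 negative differences; it was 0.24 in line 1 and 0.03 in line 2, and 0.01 and 0.30 when the combination array of line 1 or line 2 was left out. Both arrays of the combination lay above both control arrays for 16 members, or 47.1%, against 31% of all genes, and below them for 5, or 14.7%, against 29%. The comparisons with control share the control arrays, so their values stand side by side and are not counted against each other.

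**Figure D1:**
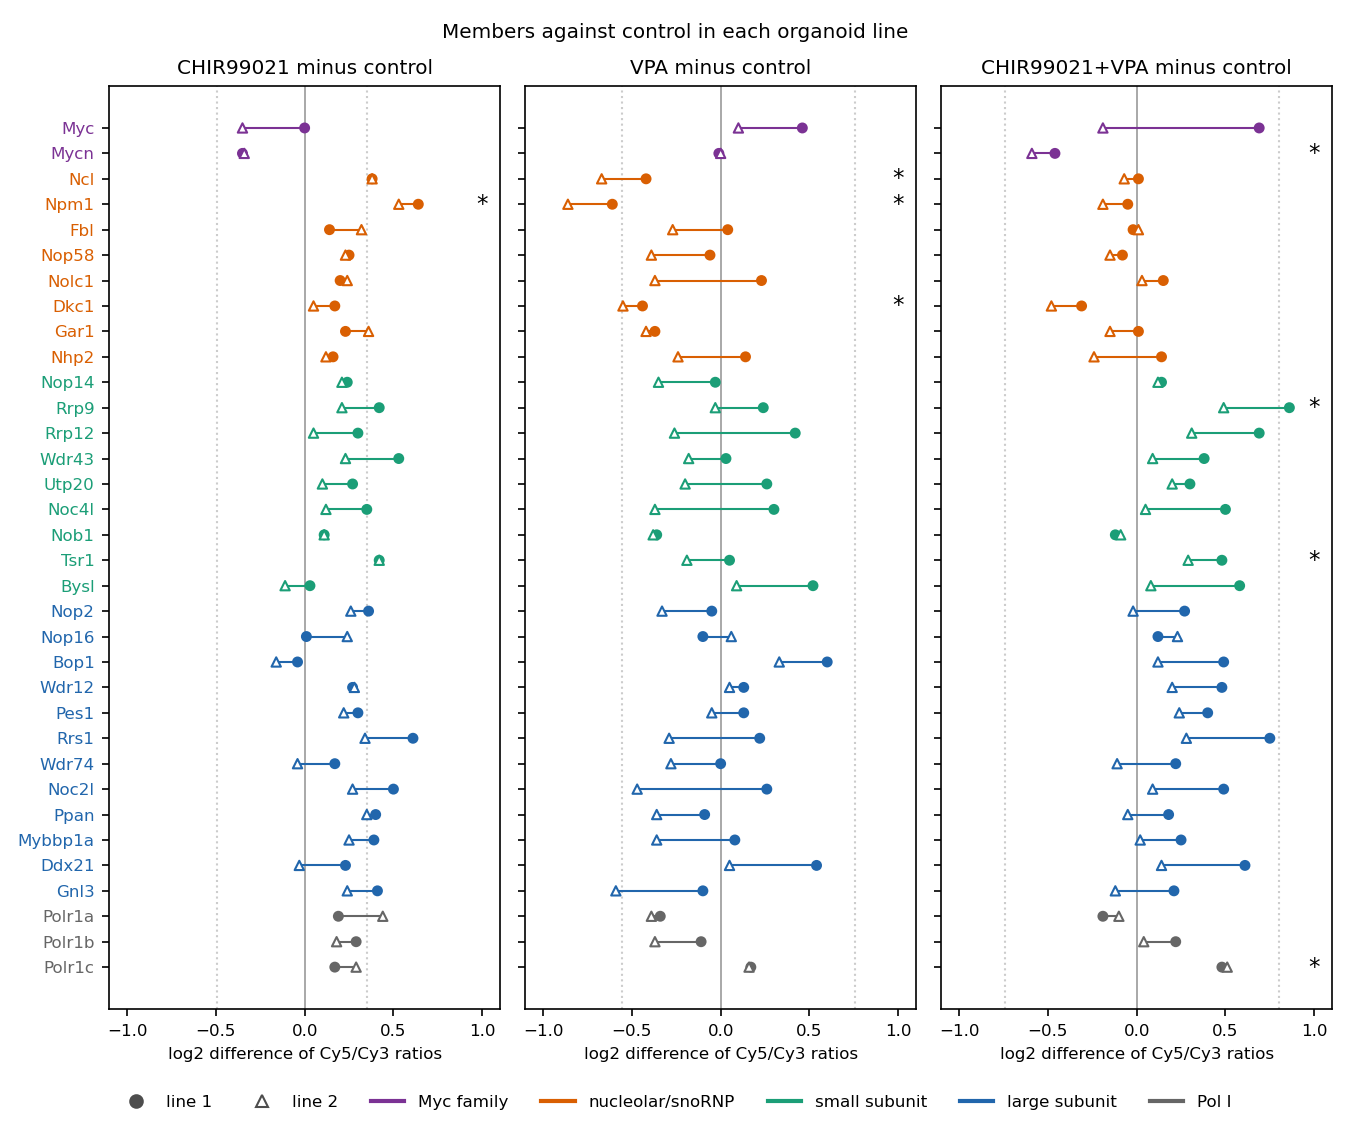
Each of the 34 members is a row, and its log2 difference from the control array is plotted for line 1 (filled circle) and line 2 (open triangle) in 3 panels, coloured by role; dotted lines mark the 5th and 95th percentile of all genes and an asterisk marks a member past the adjusted threshold. With CHIR99021 30 of 34 mean differences lie right of 0, and with VPA the lines lie apart for many members. With both agents the snoRNP and nucleolar genes, Rrp9 not among them, stay near or left of 0. The 12 large-subunit genes all have a mean difference above 0 there, with lines of opposite sign for 4.

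Myc itself did not pass the test in any comparison. Its ratio in lines 1 and 2 was 0.24 and 0.20 for control, 0.25 and -0.14 for CHIR99021, 0.70 and 0.30 for VPA, and 0.93 and 0.02 for the combination. On this probe the line 1 values were higher than the line 2 values in every group. The gap was widest with both agents, where the difference from control was 0.69 in line 1 and -0.19 in line 2. On the dimmest Myc probe line 1 lay below line 2 for control (-0.14 and -0.04) and VPA (0.07 and 0.29). There it lay above line 2 with CHIR99021 (-0.28 and -0.37) and with both (0.32 and -0.35). On the probe used, the mean difference was -0.17 ± 0.30 (SE) with CHIR99021 (limma adjusted p = 0.894), with a 95% interval from -0.90 to 0.55 that leaves room for a change in either direction. It was 0.28 ± 0.30 with VPA (adjusted p = 0.635) and 0.25 ± 0.30 with both (adjusted p = 0.65). The other Myc probes gave -0.17 and -0.23 with CHIR99021.

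Mycn, which encodes the N-Myc protein, read 0.21 and 0.14 on the control arrays, -0.14 and -0.20 under CHIR99021, 0.20 and 0.14 under VPA, and -0.25 and -0.45 under the combination. Every array that had CHIR99021 lay below every array that did not. The fall of 0.53 on the log2 scale with both agents, or 1.44-fold, passed the test (SE 0.10, limma adjusted p = 0.0172); the difference of -0.34 ± 0.10 with CHIR99021 alone did not (adjusted p = 0.215). The probe was dim, with a mean log2 brightness of 7.18, and a second, dimmer Mycn probe, above background on 6 arrays, gave 0.04 with CHIR99021 and 0.03 with both. The call thus stands on 1 of 2 probes, and it ended without either control array or the combination array of line 2. In all it ended in 8 of 23 alternative settings.

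Among the genes around Myc, 22 of 23 were tested, and the largest moves were in the Mad family, whose proteins compete with Myc for Max. Mxd1 fell by 1.43 and Mxd4 fell by 1.45 with both agents (SE 0.27 and limma adjusted p = 0.0152 for each). With CHIR99021 alone the values were -1.03 (adjusted p = 0.162) and -1.07 (adjusted p = 0.154). Once organoid line entered as a block, each fell (adjusted p = 0.0312 and 0.0181). Fbxw7, part of the ubiquitin ligase that marks Myc for breakdown, rose by 0.55 with both agents (adjusted p = 0.0287), as did Mxd3 by 0.56 (adjusted p = 0.0448). With VPA alone Mycbp rose by 0.47 (adjusted p = 0.0212), 1 of the 22; with the block 3 rose, Mxd3 and Fbxw7 being added, and Mxd4 fell. The median over the 22 was -0.10 with CHIR99021, -0.10 with VPA and -0.18 with both.

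**Figure D2:**
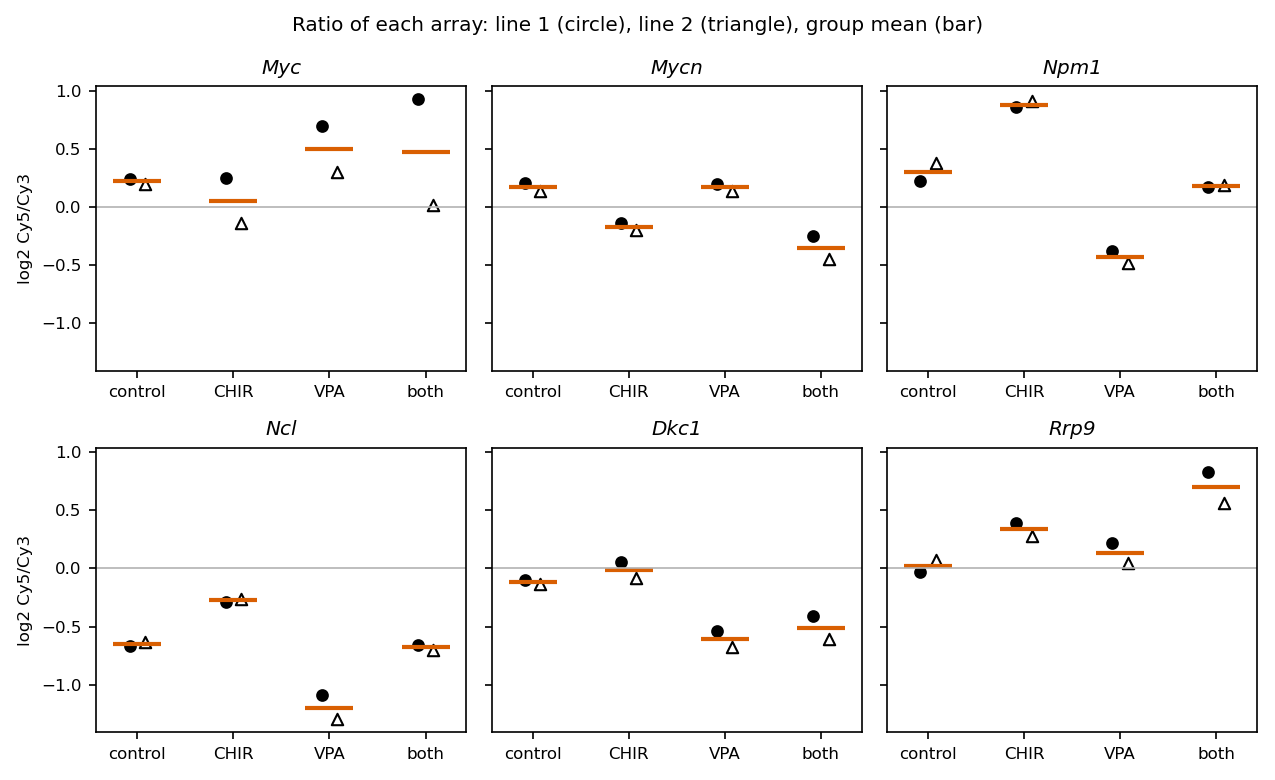
The log2 Cy5/Cy3 ratio of Myc, Mycn, Npm1, Ncl, Dkc1 and Rrp9 is plotted on each array for control, CHIR99021 (CHIR), VPA and both agents; circles are line 1, triangles line 2 and bars the mean of 2 arrays. Npm1 runs from -0.48 with VPA to 0.91 with CHIR99021 with its lines close together, while the Myc lines read 0.93 and 0.02 with both agents.

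Npm1 had the clearest pattern of the snoRNP and nucleolar genes. It encodes nucleophosmin, an abundant nucleolar chaperone that helps assemble and export the large subunit. Lines 1 and 2 read 0.22 and 0.38 under control, 0.86 and 0.91 under CHIR99021, -0.38 and -0.48 under VPA, and 0.17 and 0.19 under the combination. The CHIR99021 arrays were the highest, the VPA arrays the lowest, and the combination lay just under control. Npm1 rose 1.50-fold with CHIR99021 (0.58 ± 0.09, limma adjusted p = 0.0497) and fell 1.66-fold with VPA (-0.73 ± 0.09, adjusted p = 0.00725). With both agents it was at -0.12 ± 0.09 against control (adjusted p = 0.461). Its second probe gave 0.53, -0.75 and -0.12 in the same comparisons. The CHIR99021 call sits at the threshold: it ended when any one of the 8 arrays was left out and in 18 of 23 alternative settings, in which its value ran from 0.41 to 0.88. The fall with VPA ended in 4 of 23 alternative settings, among them without either control array.

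Ncl encodes nucleolin, which binds the nascent precursor RNA. Its ratios were -0.67 and -0.63 on the control arrays, -0.29 and -0.26 under CHIR99021, -1.09 and -1.30 under VPA, and -0.66 and -0.70 under the combination. The groups lay in the same order as for Npm1 except that the combination overlapped control. Ncl fell 1.46-fold with VPA (-0.55 ± 0.10, limma adjusted p = 0.0204), and the difference with CHIR99021 was 0.38 ± 0.10 (adjusted p = 0.166). Its 4 probes split: the next brightest gave 0.60 with CHIR99021 and -0.47 with VPA, while the 2 dimmest gave 0.11 and 0.07 with CHIR99021 and 0.00 and -0.06 with VPA. The fall with VPA also ended without the control array of either line or the VPA array of line 2, and in 9 of 22 alternative settings in all.

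Dkc1 encodes dyskerin, the enzyme of the H/ACA snoRNPs that turns uridine into pseudouridine. It read -0.10 and -0.13 on the control arrays, 0.06 and -0.08 under CHIR99021, -0.54 and -0.68 under VPA, and -0.41 and -0.61 under the combination. All 4 arrays with VPA lay below all 4 without it. The fall with VPA was 1.41-fold (-0.49 ± 0.11, limma adjusted p = 0.0368), and the second probe gave -0.54. The call ended when either control, either CHIR99021 or either VPA array was left out, and in 14 of 22 alternative settings in all. With both agents Dkc1 stood at -0.39 ± 0.11 (adjusted p = 0.0581).

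The other genes of this group kept to the same signs in their mean differences without passing the test. With VPA the lines had opposite signs for Fbl, Nhp2 and Nolc1. Gar1 and Nhp2 are dyskerin's partners; they stood at 0.30 and 0.14 with CHIR99021 and at -0.39 and -0.05 with VPA. The C/D snoRNPs methylate the precursor RNA: Fbl, their methyltransferase, stood at 0.23 and -0.12, and the core protein Nop58 at 0.24 and -0.22. Nolc1, a chaperone of both particle types, read 0.49 and -0.07 on the control arrays. Both dyes there carried control RNA of the same line, so that gap is not a difference in Nolc1 between lines. Its 2 arrays lay apart in every group (SD from 0.37 to 0.82), and its SE was the widest, 0.43. The second, dimmer Nolc1 probe read -0.02 and 0.09 on the control arrays. It gave 0.13 with VPA, where the first gave -0.07. Over all 8 tested members grouped as snoRNP and nucleolar, Rrp9 not included, the median was 0.23 with CHIR99021, -0.31 with VPA and -0.06 with both. All 8 means were positive with CHIR99021 and negative with VPA, but with VPA only 5 were negative in both lines. The 11 snoRNP genes tested outside the members had medians of 0.23, 0.05 and 0.25. With VPA 8 of these were positive and 3 negative.

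Rrp9 led the small-subunit genes. It is a protein of the U3 snoRNP, which folds the precursor RNA for its first cuts. Its ratio was -0.03 and 0.07 on the control arrays, 0.39 and 0.28 under CHIR99021, 0.22 and 0.05 under VPA, and 0.83 and 0.56 under the combination. The combination lay above every other array. Rrp9 rose 1.60-fold over control there (0.67 ± 0.12, limma adjusted p = 0.0148). That call ended in 3 of 23 alternative settings: without either control array or the combination array of line 1. With single agents Rrp9 stood at 0.31 (adjusted p = 0.355) and 0.11 (adjusted p = 0.652).

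Tsr1, a GTPase-like factor of late small-subunit assembly, read -0.08 and 0.04 on the control arrays, 0.34 and 0.46 under CHIR99021, -0.03 and -0.16 under VPA, and 0.40 and 0.33 under the combination. The arrays with CHIR99021 were high whether or not VPA was present. The rise with both agents was 1.31-fold (0.39 ± 0.10, limma adjusted p = 0.0436); with CHIR99021 alone the value was 0.42 ± 0.10 (adjusted p = 0.136), larger but short of the threshold, which fewer genes pass in that comparison. The call with both agents ended when any control, CHIR99021 or combination array was left out, and in 12 of 23 alternative settings in all.

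The remaining small-subunit members did not pass. Wdr43, Utp20, Nop14 and Noc4l belong to the early processome, Rrp12 helps export the particle, and Bysl and the endonuclease Nob1 act late. With CHIR99021 they lay between -0.04 (Bysl) and 0.38 (Wdr43). With VPA they lay between -0.37 (Nob1) and 0.30 (Bysl) on the probes used. For Wdr43 the second probe gave -0.56 where the first gave -0.08. The other Bysl probes gave 0.26 and 0.70 with VPA. The probe at 0.70 read 0.95 and 0.83 on the VPA arrays of lines 1 and 2, where the probe used read 0.53 and -0.02. The 9 small-subunit members had medians of 0.22 with CHIR99021, -0.04 with VPA and 0.27 with both.

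No large-subunit member passed the test in any comparison, yet with both agents all 12 mean differences were positive, from 0.05 to 0.52 with a median of 0.23. Both lines were positive for 8 of them and had opposite signs for 4, with line medians of 0.33 and 0.10. With CHIR99021 11 of 12 were positive, with a median of 0.29, and with VPA 4 of 12, with a median of -0.07. Rrs1, which brings the 5S RNA to the particle, read -0.19 and -0.14 on the control arrays, 0.42 and 0.21 under CHIR99021, 0.03 and -0.42 under VPA, and 0.56 and 0.15 under the combination. It gave the largest large-subunit value with CHIR99021, 0.48 ± 0.20 (limma adjusted p = 0.375). Bop1, Pes1 and Wdr12 form one complex needed to process the large-subunit RNA, and they did not move alike. Pes1 and Wdr12 stood at 0.26 and 0.27 with CHIR99021 and at 0.04 and 0.09 with VPA, whereas Bop1 stood at -0.10 and 0.47. Its ratios were 0.02 and -0.02 on the control arrays, -0.02 and -0.19 under CHIR99021, 0.63 and 0.31 under VPA, and 0.51 and 0.09 under the combination, so both VPA arrays lay above control. The difference among the 3 was not tested, and the second Pes1 probe gave 0.02 with CHIR99021 and 0.50 with VPA.

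Several other large-subunit genes leaned up with CHIR99021: Noc2l 0.38, Ppan 0.37, Gnl3 (nucleostemin, a nucleolar GTPase) 0.33, Mybbp1a 0.32 and the RNA methyltransferase Nop2 0.31. Nop16, the helicase Ddx21 and Wdr74 lay between 0.07 and 0.13. With VPA, Noc2l was 0.26 in line 1 and -0.47 in line 2, an example of the split between lines. Probes disagreed with VPA for Nop16, -0.02 and 0.55, and for Ddx21, whose 3 probes gave 0.30, 0.07 and -0.28.

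The 3 RNA polymerase I members parted with VPA. Polr1c, a subunit shared with RNA polymerase III, read -0.17 and -0.06 on the control arrays, 0.00 and 0.23 under CHIR99021, 0.00 and 0.10 under VPA, and 0.31 and 0.45 under the combination, and it rose 1.41-fold with both agents (0.50 ± 0.11, limma adjusted p = 0.0311). That call ended without either control or either combination array, and in 7 of 23 alternative settings in all. Polr1a, the largest catalytic subunit, read 0.09 and -0.07, then 0.28 and 0.38, -0.25 and -0.46, and -0.10 and -0.16 in the same order of groups. Its VPA arrays were the lowest and its CHIR99021 arrays the highest. Against control it stood at 0.32 ± 0.11 with CHIR99021 (adjusted p = 0.289) and -0.37 ± 0.11 with VPA (adjusted p = 0.0859). Polr1b, the second catalytic subunit, stood at 0.23 and -0.24.

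Each agent was also tested on top of the other, and these comparisons share no array with the matching single-agent comparison. Adding CHIR99021 to VPA raised Npm1 by 0.61 ± 0.09 (limma adjusted p = 0.0415), the only member past the threshold, where 1.12% of all genes passed, 0.0883% higher and 1.03% lower. That call, too, ended when any one array was left out, and in 15 of 22 alternative settings in all. The median over members was 0.28, with 30 of 34 positive, and both combination arrays lay above both VPA arrays for 18 members, or 52.9%, against 19.4% of all genes, and below them for 1, or 2.94%, against 17%. Without the VPA array of line 2 the median was 0.14. The CHIR99021 difference was positive both without and with VPA for 29 of 34 members, or 85.3%, against 37.6% of all genes; Bop1, Myc and Mycn were negative in both.

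Adding VPA to CHIR99021 lowered 4 members, where 10% of all genes passed, 3.81% lower and 6.21% higher. Npm1 fell by 0.70 (SE 0.09, limma adjusted p = 0.00884), Dkc1 by 0.50 (SE 0.11, adjusted p = 0.0375), Polr1a by 0.46 (SE 0.11, adjusted p = 0.0473) and Ncl by 0.41 (SE 0.10, adjusted p = 0.0477). Npm1 lost the call without either CHIR99021 array, and the other 3 lost it without any control, CHIR99021 or combination array. In all, the calls ended in 5 of 22 alternative settings for Npm1, 10 of 21 for Dkc1, 11 of 22 for Polr1a and 16 of 21 for Ncl. The median over members was -0.10, with 13 positive and 21 negative, and it was 0.00 without the combination array of line 2. Both combination arrays lay below both CHIR99021 arrays for 13 members, or 38.2%, against 24.3% of all genes, and above them for 4, or 11.8%, against 27.1%. VPA gave a negative value both without and with CHIR99021 in 21 of 34 members, or 61.8%, against 38.4% of all genes. All 8 members grouped as snoRNP and nucleolar were negative in each comparison. The U3 snoRNP protein Rrp9, grouped with the small subunit, stood at 0.11 and 0.36.

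The test for departure from additivity passed for 0 members and for 0% of all genes, and at an unadjusted p under 0.05 it held 0 members and, of all genes, 254 higher and 257 lower. For Npm1 the departure was 0.03 ± 0.13 and for Rrp9 0.25 ± 0.18. Its SE over the members had a median of 0.18, so small departures were not detectable with 2 arrays a group.

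**Figure D3:**
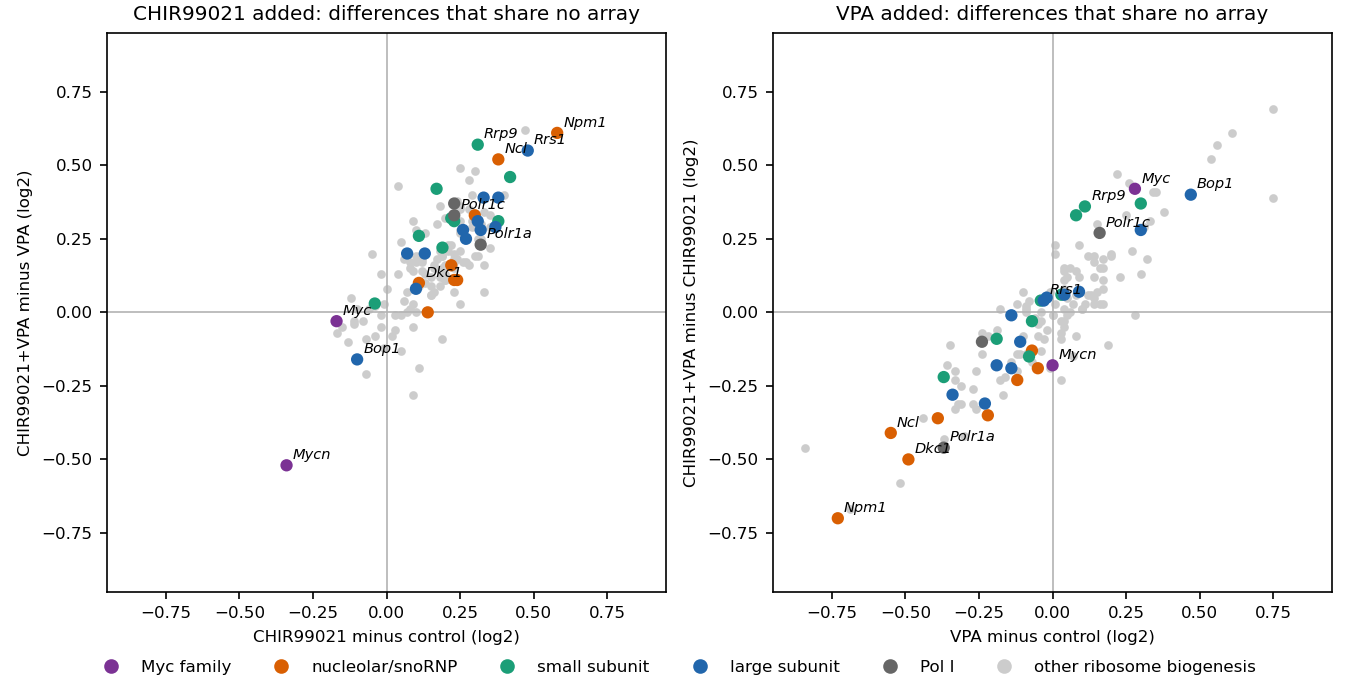
Left, the log2 difference on adding CHIR99021 without VPA (x) and with VPA (y); right, that on adding VPA without CHIR99021 (x) and with it (y); members are coloured by role and the 120 other ribosome biogenesis genes tested are grey. Most members lie upper right on the left (29 of 34), and Npm1, Ncl and Dkc1 lie lower left on the right.

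Organoid line was also entered as a block. Each group held 1 array of each line, so the block could not alter any difference, only its error. It added calls. With VPA 7 members passed in place of 3: Bop1 rose (adjusted p = 0.0321 with the block), and Nob1 (0.0224), Gar1 (0.0365) and Polr1a (0.0493) fell. With both agents 7 passed in place of 4: Rrs1 (0.0362) and Pes1 (0.04) rose and Dkc1 (0.0189) fell. Adding CHIR99021 to VPA gave 4 in place of 1, with Ncl (0.045) and Rrp9 (0.0489) rising and Mycn (0.032) falling, and in the other 2 comparisons Gar1 fell on adding VPA to CHIR99021 (0.0486) and Npm1 stayed the single CHIR99021 call. Over all genes the block also passed more. With it 2.89% passed for CHIR99021 (0.405% higher, 2.49% lower), 19.4% for VPA (10.9% and 8.56%) and 25% for both agents (13.3% and 11.7%). It passed 17.7% on adding VPA to CHIR99021 (10.3% higher, 7.47% lower) and 3.18% on adding CHIR99021 to VPA (0.592% and 2.59%).

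Ribosome biogenesis genes outside the members had medians near the members' with CHIR99021 and with both agents, but with VPA the balance of signs differed. Of the 120 tested, 100 were positive with CHIR99021, with a median of 0.17 and 0 past the test (18 at an unadjusted p under 0.05, all higher). With VPA 5 rose and 5 fell around a median of 0.03, with 68 positive and 52 negative, where the members had 10 and 24. With both agents 10 rose and 3 fell around 0.15. With organoid line as a block 8 rose and 6 fell for VPA, and 24 rose and 4 fell for both. Ubtf, the factor that opens ribosomal DNA for RNA polymerase I, fell by 0.69 with VPA (limma adjusted p = 0.00742) and by 0.70 with both (adjusted p = 0.00455). The polymerase I subunit Polr1e rose by 0.61 (adjusted p = 0.0262) and 0.80 (adjusted p = 0.00757), and Zfp593, of large-subunit assembly, by 0.75 (adjusted p = 0.0144) and 0.91 (adjusted p = 0.00478).

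The 78 structural ribosomal protein genes had medians of 0.22 with CHIR99021, -0.31 with VPA and -0.03 with both. By line (line 1, then line 2) these were 0.07 and 0.39, -0.44 and -0.22, and -0.27 and 0.19. The snoRNP and nucleolar members read 0.22 and 0.28, -0.21 and -0.40, and -0.01 and -0.15. The lines thus stood in the opposite order with VPA and with both. With both agents 55 of the 78 had opposite signs in the 2 lines. With VPA 3 fell, Rpl15 by 0.51, Rpl22l1 by 0.47 and Rpl35a by 0.54, and 16 fell with organoid line as a block. The 57 classic Myc targets had medians of 0.21, -0.02 and 0.19. With VPA 1 of them rose and 4 fell (1 and 8 with the block), and with both 4 rose and 0 fell (7 and 2 with the block). Impdh1, an enzyme of guanine nucleotide synthesis, rose by 1.17 with VPA (limma adjusted p = 0.00429) and 1.18 with both (adjusted p = 0.00246). Among those that fell with VPA were the one-carbon enzyme Shmt1, by 0.56 (adjusted p = 0.0196), Ahcy, by 0.43 (adjusted p = 0.0223), and the arginine methyltransferase Prmt1, by 0.43 (adjusted p = 0.0364). Mitochondrial ribosome genes, made outside the nucleolar pathway, had medians of -0.04, 0.02 and 0.04 over 78 genes. The differences between lists were not tested.

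Markers of dividing and of absorptive cells are given beside the members' values. All 8 proliferation markers were positive with CHIR99021 (median 0.31, 0 past the limma test and 1 at an unadjusted p under 0.05) and negative with VPA (median -0.37, with Ccnb1 falling by 0.56); with both the median was -0.04. In line 1 the VPA median of these markers was -0.12 and in line 2 -0.58, and the members' medians were 0.04 and -0.28. The 12 enterocyte markers had medians of -1.88 with CHIR99021, -0.17 with VPA and -1.77 with both, and 5, 3 and 8 of them fell (8, 3 and 9 with the block). With VPA they split, 6 positive and 6 negative, with line medians of 0.27 and -0.15, and Mttp rose by 0.64. The part of cell division or cell type in the members' values was not tested.

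**Figure D4:**
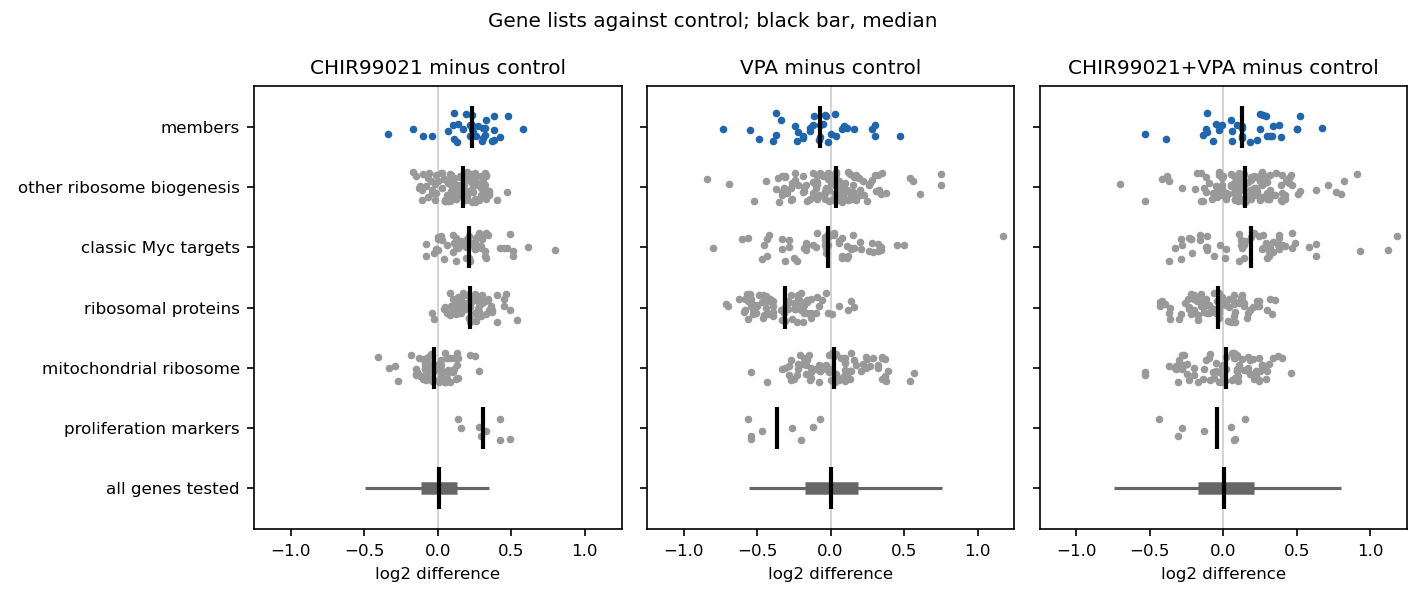
Each point is a gene's log2 difference from control in 3 panels; rows are the members (blue), the other lists (grey) and, for all genes tested, the 5th to 95th percentile (line) and quartiles (thick bar), and black bars are medians. Members, other ribosome biogenesis genes, Myc targets, ribosomal proteins and proliferation markers have medians from 0.17 to 0.31 with CHIR99021, and ribosomal proteins and proliferation markers reach -0.31 and -0.37 with VPA.

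The letters CACGTG, the E-box to which Myc and Max bind, were counted in RefSeq promoter windows of build GRCm38.p6, from 250 bases before each gene's start to 50 after it. The letters read the same on both strands, so each match counts once. Windows existed for 29 of the 35 members (none for Bop1, Fbl, Myc, Npm1, Rrp12 and Rrs1), and 6 of the 29 held a match, or 20.7%, against 2187 of 27025 genes, or 8.09%; by window the shares were 18.8% and 7.15%. The share was 28.8% of classic Myc targets and 17.3% of the other ribosome biogenesis genes. The 6 stretches are shown because they place the motif near the start of members described above, with the match in capitals, on the strand of the gene:
Mybbp1a (chr11:72441355-72441376, plus strand): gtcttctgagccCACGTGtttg
Nop2 (chr6:125131811-125131840, plus strand): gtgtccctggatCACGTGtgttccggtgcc
Pes1 (chr11:3963965-3963994, plus strand): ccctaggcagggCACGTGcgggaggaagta
Tsr1 (chr11:74898092-74898121, plus strand): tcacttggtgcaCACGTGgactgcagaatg
Utp20 (chr10:88826765-88826789, minus strand): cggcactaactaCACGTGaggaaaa
Wdr43 (chr17:71616220-71616249, plus strand): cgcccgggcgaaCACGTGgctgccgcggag

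In Nop2 the match lay 60 bases before the start, and in the other 5 it began 2 to 40 bases after it. On the probes used, the 6 genes stood between 0.19 (Utp20) and 0.42 (Tsr1) with CHIR99021, between -0.19 (Nop2) and 0.04 (Pes1) with VPA, and between 0.13 and 0.39 with both. Over all 34 members the medians were 0.23, -0.07 and 0.13, with 30 positive with CHIR99021. The second probe gave 0.02 with CHIR99021 and 0.50 with VPA for Pes1, and -0.56 with VPA for Wdr43. Members with and without a match were not compared. A match is a run of letters and not a measured binding site, and Npm1, Rrs1 and Myc were among the genes with no window to search.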

How the data were processed

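Per the labels, Agilent mouse arrays compared Cy5-labelled sample RNA with Cy3-labelled control RNA for 2 organoid lines. Per the file headers, version 10.5.1.1 of Agilent Feature Extraction read the spots. The deposited intensity values are median pixel brightness of spot and local background, linear and not background-subtracted. The deposited log10 ratio is the software's background-subtracted, dye-normalised Cy5 over Cy3, per the file headers, and the authors' series table of log2 values equalled it within 5e-10 on 19228 spots, with column medians from -0.028 to 0.036, so its direction, scale and lack of further centring were settled. The sources used here do not say how the authors called genes.

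Background was corrected with normexp (offset 50), ratios were normalised by loess within arrays (limma 3.58.1, R 4.3.3), spots of a probe were averaged, and a gene was kept if, in 1 group or more, its Cy5 signal was marked well above background on each array; 79 with a missing value were dropped. Accessions were named through RefSeq (assembly GRCm38.p6); the headers name build mm9, so coordinates are given only for the RefSeq promoter windows, in their own build. Of 41174 probes, 27479 matched a symbol. All 4 groups were fitted together with limma, leaving 4 residual degrees of freedom, and the code was tested on simulated data. The number of arrays limits precision.

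Spots the software marked as non-uniform, with a non-uniform background, or as population outliers were left out, also from the normexp fit. This choice was not made blind. Of 5 sets of markings tried, the first also left out background population outliers and dropped 3270 genes; the set used was then taken with the call counts of all 5 in view. Sets that kept spots with a non-uniform background put the fitted Cy3 noise SD of the CHIR99021 array of line 1 at 770 and 773, against 1.44 or less on any array in the set used, and called 0 genes higher and 1 lower with CHIR99021 in place of 22 and 194.

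Labels give the replicate number as the organoid line, so it pairs the arrays; deviations of same-numbered arrays correlated at 0.122 to 0.755 between groups. Each line had its own slide, so a difference between lines cannot be told apart from a difference between slides. The members and gene lists were chosen with earlier results of these data known. All members could be named; from other lists, at most the 4 genes of smallest adjusted p in each comparison, with Myc network genes and markers free to be named. Alternatives were other background corrections, normalisations, filters, probe rules, fits, sets of markings and leaving out each array.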

Additional observations from a re-analysis of the deposited data

How the results depend on the processing

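Counts of members past the threshold are given for CHIR99021, VPA and both agents against control, then for adding VPA to CHIR99021 and CHIR99021 to VPA; they were 1, 3, 4, 4 and 1. They became 0, 2, 3, 3 and 0 with normexp fitted on all spots, 0, 1, 1, 1 and 0 with the software's own ratios, 0, 0, 1, 0 and 0 with median centring, 0, 3, 3, 2 and 1 with no filter on dim probes, 0, 2, 4, 2 and 1 with the mean of a gene's probes, 0, 2, 4, 3 and 1 with a variance trend and robust fitting, 0, 0, 3, 2 and 0 from Cy5 alone, and 1, 1, 1, 0 and 0 when only the compared groups were fitted. The organoid line as a replicate block gave 1, 7, 7, 5 and 4. Treated ratios set against 0, with the control arrays ignored, gave 8, 14 and 7, and there Ncl with CHIR99021 turned to -0.27 (limma adjusted p = 0.0348), the only reversal among called values. A filter on all arrays changed no count. Leaving out 1 array at a time gave 0 to 0, 0 to 3, 0 to 4, 0 to 4 and 0 to 0. The departure from additivity kept 0 calls wherever it was fitted. The cause of these changes was not tested.

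The sets of marked spots were compared after the data were seen. Leaving out all outlier markings tested 29 members and gave 0, 1, 4, 2 and 1; non-uniform spots and backgrounds alone gave 1, 3, 4, 4 and 1; and both sets that kept non-uniform backgrounds gave 0, 2, 4, 3 and 0. The single CHIR99021 call therefore depends on this choice, while 30 or 31 of 34 members were positive with CHIR99021 under the sets that tested all 34.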
